A study of Mus musculus with 2 samples.

Results

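Trib1, Trib2 and Trib3 encode the mammalian Tribbles pseudokinases, and the peaks of a FLAG-HLF chromatin profile were collected around them. A peak belonged to a gene's surroundings if its centre lay inside the gene or within 100 kb of either end. By this rule 7 of the 3153 peaks of the list lay at the 3 genes, 6 of them at Trib1, none at Trib2 and 1 at Trib3. Trib1 was taken up because of its number of peaks in this same list. Its counts are therefore a description and were not tested, and Trib2 and Trib3 are shown as its relatives.

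HLF, or hepatic leukemia factor, belongs to the PAR bZIP transcription factors, which bind DNA in pairs through a basic leucine zipper. Wild-type mouse LSK cells, which are blood stem and progenitor cells without lineage markers and with Sca-1 and c-Kit on their surface, received a pMX retrovirus. In the FLAG-HLF arm it carried 3xFLAG-Hlf with GFP, and in the GFP-ctrl arm GFP alone. The cells were kept for 5 days in OP9 medium with SCF, IL-7, Flt3L and IL-3, and chromatin was precipitated with an anti-FLAG antibody. HLF thus came from a virus and carried a tag in these cells, and whether the cells still had the LSK phenotype after culture was not analysed here. Each arm had 1 library, so no value has a replicate check. The GFP-ctrl library was not analysed here, and the arms were not compared. The list gives positions of intervals, each 400 bases wide, without read counts, heights or significance, so the depth is unknown.

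Tribbles proteins have the fold of a protein kinase but act mainly as scaffolds. Their C-terminal tail binds the ubiquitin ligase COP1. In Trib1 and Trib2 the pseudokinase domain holds the substrate C/EBP alpha, a transcription factor of the granulocyte and monocyte lineages, which is then degraded. In blood, excess Trib1 or Trib2 blocks myeloid differentiation and gives rise to acute myeloid leukemia in mice. Tribbles proteins also bind kinases of the MAP kinase cascade, and Trib3, which is induced by the stress factors ATF4 and CHOP, binds AKT.

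Trib1 (mm10, chromosome 15, 59648654 to 59657099) is a short gene of 8.45 kb, and 4 peaks lay on it or at its end. The lowest of the 4 (chr15:59648348-59648747) was centred 0.107 kb outside the lower end of the gene, the end with the smaller coordinate, and its interval spanned that end. The next (chr15:59650425-59650824) was centred 1.97 kb inside. The third (chr15:59652187-59652586) and the fourth (chr15:59652819-59653218) were centred 3.73 and 4.36 kb from the lower end. The fourth centre was 4.08 kb from the upper end, near the middle of the gene, and no other peak lay between it and that end. Transcription of Trib1 is known to begin at its lower end, although the gene table used here gives no strand. Whether the peaks inside fell in exons or introns was not determined.

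The 4 peaks at Trib1 were separate intervals. Their centres were 2.08, 1.76 and 0.632 kb apart, and even the closest pair left 0.232 kb between the interval edges. From the first to the fourth centre the group spanned 4.47 kb. No other place in the list had 4 peak centres within 5 kb, and none had 4 within 10 kb. Such places were counted after the data were seen, and the group consists of peaks by which Trib1 was chosen. Its place in the list is therefore a description and was not tested. Groups of 3 within 5 kb occurred at 3 places, with Trib1, Ly6e and Uck2 as the nearest genes. Groups of 2 within 5 kb occurred at 115 places. In the plot of peak intervals at Trib1 and Trib3 the 4 boxes of Trib1 stand at and above its lower end.

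**Figure D1:**
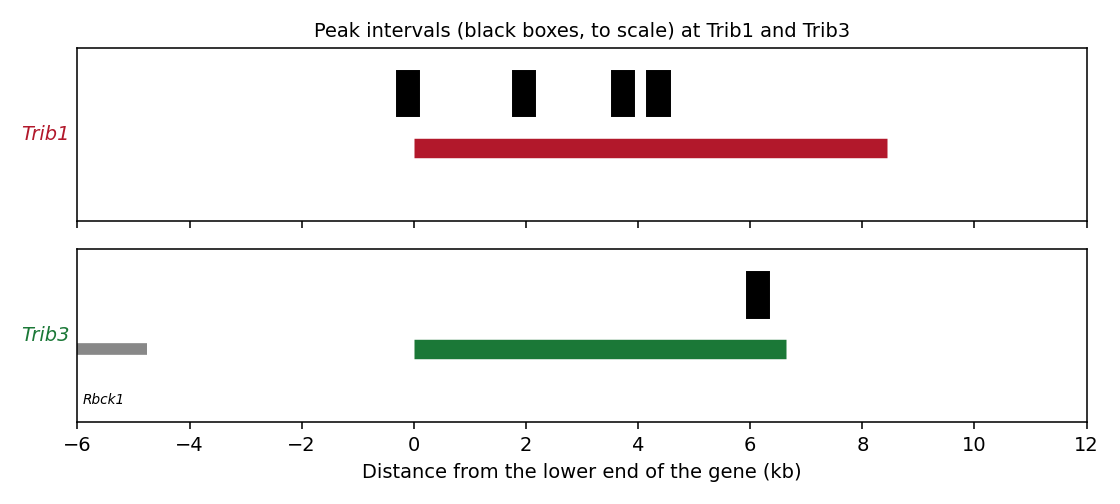
Peak intervals at Trib1 (top) and Trib3 (bottom), against the distance from the lower end of each gene in kb. Coloured bars are the genes, black boxes the 400-base peaks drawn to scale and the grey bar is the neighbour Rbck1. Trib1 has 4 boxes between 0.107 kb outside and 4.36 kb inside its lower end, and Trib3 has 1 box, centred 0.501 kb from its upper end.

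Another 2 peaks lay in the wider surroundings of Trib1. One (chr15:59728197-59728596) was centred 71.3 kb above the upper end, outside every gene of the table. The other (chr15:59552503-59552902) was centred 95.95 kb below the lower end, inside Nsmce2, which encodes a SUMO ligase of the SMC5/6 complex. It was closer to the upper end of Nsmce2 (48.99 kb) than to Trib1. When every peak counted for the coding gene whose end was nearest, up to 100 kb away, Trib1 therefore had 5 nearest peaks and Nsmce2 had 1. Between Nsmce2 and Trib1 lie 46.97 kb without a coding gene, and the 1 peak there was the one that spans the lower end of Trib1.

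Above Trib1 no coding gene follows for 357.8 kb, up to 4933412E24Rik, and this interval held 3 peaks. The first is the peak at 71.3 kb. The second (chr15:59831000-59831399) was centred 174.1 kb above Trib1, inside the long noncoding RNA gene Gm36819, and Trib1 was still its nearest coding gene. The third (chr15:59864752-59865151) was centred 207.9 kb above Trib1 and was closer to 4933412E24Rik, at 149.9 kb. The peak at 95.95 kb was thus the last inside the limit of 100 kb, and the peak at 174.1 kb the first beyond it. Sqle, which encodes squalene epoxidase of sterol synthesis and is the third coding gene below Trib1, had 1 nearest peak. Washc5, between Sqle and Nsmce2, had none, and neither had 4933412E24Rik, Lratd2 or A1bg, the next coding genes above.

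**Figure D2:**
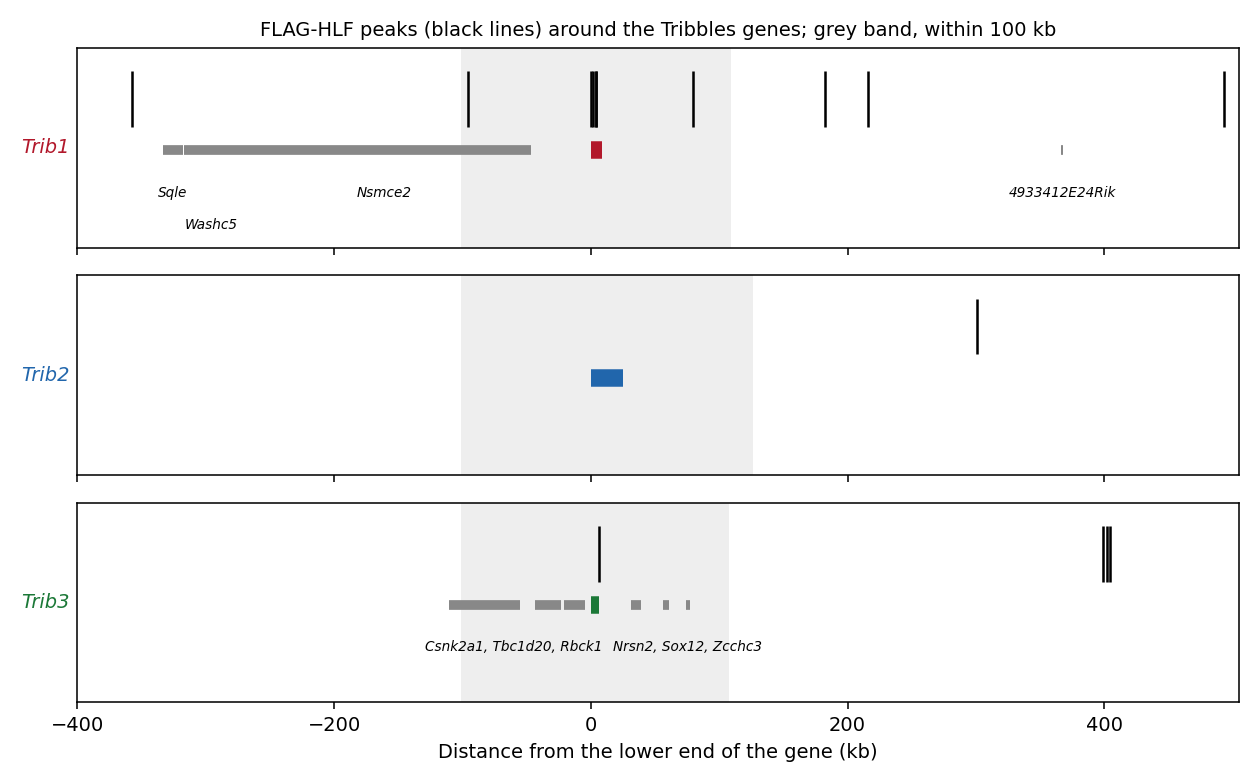
Peaks around Trib1, Trib2 and Trib3, against the distance from the lower end of each gene in kb. Black lines are peak centres within 500 kb of a gene, coloured bars the 3 genes, grey bars up to 3 neighbouring coding genes on each side and the grey band the reach of 100 kb. The band holds 6 peaks at Trib1, 0 at Trib2 and 1 at Trib3, and the closest peak to Trib2 stands 275.9 kb above its upper end.

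The 5 nearest peaks of Trib1 were scattered along the file, at lines 259, 777, 1016, 2038 and 2506 of 3153. The order of the lines is not explained in the sources used here. The peak far above the gene stood earliest, and the 4 at the gene followed with 2 in each part of the file when it was parted at line 1576.

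Set against all 21900 coding genes of the table, the number at Trib1 was at the top of the range. There were 19535 genes with no nearest peak, 1951 with 1, 334 with 2, 64 with 3, 11 with 4 and 5 with 5. The share with 5 or more was 0.0228%, and no gene had more than 5. With peaks counted inside a gene or within 100 kb, whichever gene was nearest, 19 genes (0.0868%) had 6 or more. Nsmce2, the next coding gene below Trib1, was another of the 19, and its 6 peaks included the 4 at Trib1. Trib1 was chosen by such a count, so nothing is read from its place in this range.

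Gene length and peak spacing are described next for the same peaks by which Trib1 was chosen, and that count itself uses gene bounds. Of the coding genes, 39 (0.178%) held 3 or more peaks within their bounds. Their median length was 213 kb, against 17.1 kb for all coding genes. Trib1 with its 8.45 kb was the shortest of the 39, and the next shortest was Cdc27 with 48.1 kb. Among the 7939 coding genes of up to 10 kb, 97 held a peak, 3 held 2 or more, and 1, Trib1, held 3. Of all 21900 coding genes, 1494 (6.82%) held a peak. With peaks up to 1 kb outside included, 7 genes (0.032%) had 4 or more. The other 6 were Arid1b, Cacnb2, Gab2, Lcp1, M1ap and Sgms1, which run from 83.4 kb (M1ap) to 385 kb (Cacnb2). These lengths and counts come from the same list that chose Trib1 and are given without a test.

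The 4 other genes with 5 nearest peaks had them farther apart. Ifngr1, which encodes a subunit of the receptor for interferon gamma and is with 18.3 kb the next in length after Trib1, had all 5 outside the gene, and its tightest 4 centres spanned 54.6 kb. M1ap, a gene of male meiosis, had 5 inside its 83.4 kb, with the tightest 4 over 20.2 kb. Gab2, an adaptor of cytokine receptor signalling, had 4 of its 5 inside 227.2 kb of gene, and its tightest 4 spanned 36.9 kb. Asph, which encodes aspartate beta-hydroxylase, had 2 of its 5 inside 220.3 kb, and its tightest 4 spanned 50.6 kb. The tightest 4 of Trib1 spanned 4.47 kb, and M1ap was the next in order. All 5 together spanned 79.8 kb at Trib1 and 45.9 kb at M1ap, because 1 peak of Trib1 lay far above the gene.

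**Figure D3:**
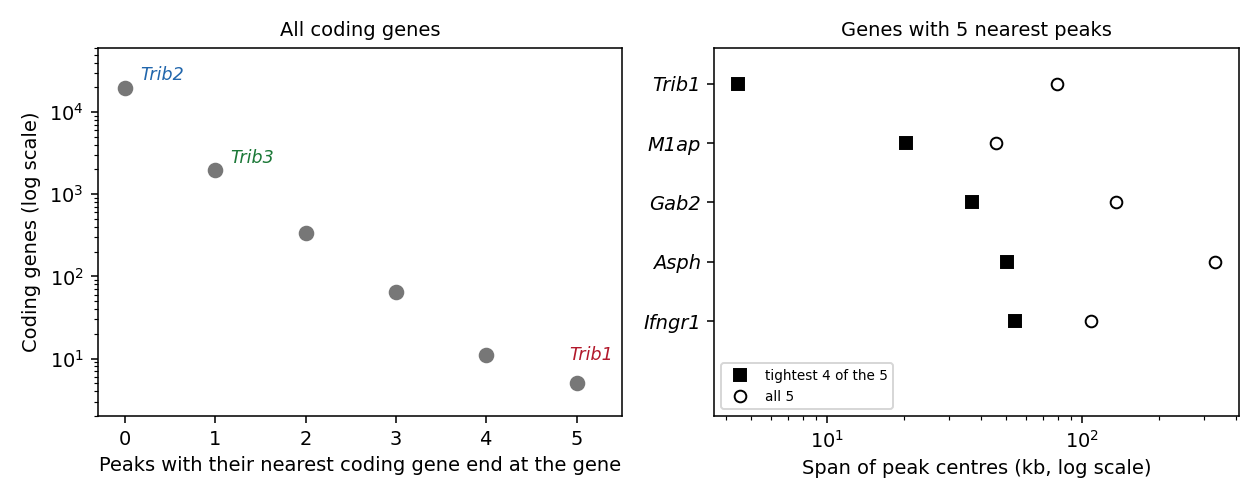
Left, number of coding genes (log scale) by the number of peaks whose nearest coding gene end, within 100 kb, is that gene's; Trib2 is among the 19535 genes with 0, Trib3 among the 1951 with 1 and Trib1 among the 5 with 5. Right, span in kb (log scale) of the tightest 4 peak centres (squares) and of all 5 (circles) at the 5 genes with 5 peaks; the square of Trib1 stands at 4.47 kb and the others from 20.2 to 54.6 kb.

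Trib2 (chromosome 12, 15791725 to 15816962) had no peak. The gene is 25.2 kb long, and the closest peak in the list (chr12:16092664-16093063) was centred 275.9 kb above its upper end, the one near which its transcription starts. Trib2 stands alone, with 1640 kb to the nearest coding gene below, Lratd1, and 718.7 kb to the nearest above, Lpin1, which encodes a phosphatidate phosphatase. The stretch above held that 1 peak and the stretch below held 0. The bases for which Trib2 has the nearest coding gene end within 100 kb add up to 225.2 kb, more than the 131.9 kb of Trib1. Of the 2170 coding genes with over 200 kb of such sequence, 79.8% had no nearest peak either, so the lack of a peak at Trib2 was the common case for its surroundings. Of the 2631 genes with 100 to 150 kb, the class of Trib1, 84.5% had no peak, 2 had 5 and the mean was 0.196 peaks. Neither the read depth nor the threshold of the list is known. Binding too weak to enter the list cannot be seen in it, at Trib2 or at any other gene without a peak.

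Trib3 (chromosome 2, 152337425 to 152344060) had 1 peak, inside the gene near its start. The gene is 6.64 kb long and is transcribed from its upper end. The peak (chr2:152343360-152343759) was centred 0.501 kb from that end, which is 0.501 kb downstream of the RefSeq start, and stood at line 1579 of the file. It was also the one peak within 100 kb of 6 neighbours, Rbck1, Tbc1d20, Csnk2a1, Nrsn2, Sox12 and Zcchc3, none of which had a nearest peak. These genes stand close together, with Rbck1, a subunit of the linear ubiquitin ligase complex, 4.76 kb below Trib3 and Nrsn2 24.7 kb above, and Trib3 has the nearest end for 21.4 kb. Of the 11518 coding genes with up to 50 kb of such sequence, 6.08% had a nearest peak. The next peaks above Trib3 were 3 at Id1, an inhibitor of bHLH factors, and the first of them was centred 392.2 kb away.

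The starts of the Tribbles genes with and without a peak are shown as sequence. The RefSeq promoter table (GRCm38.p6) matched 2 of the 3 genes, Trib2 and Trib3. It gives 250 bases before and 50 after a transcription start, and the bases before the start are printed 5′ to 3′ on the gene's strand, with each CG dinucleotide in capitals. They come from chr12:15816786-15817035 for Trib2 and chr2:152344061-152344310 for Trib3, both on the minus strand.
Trib2: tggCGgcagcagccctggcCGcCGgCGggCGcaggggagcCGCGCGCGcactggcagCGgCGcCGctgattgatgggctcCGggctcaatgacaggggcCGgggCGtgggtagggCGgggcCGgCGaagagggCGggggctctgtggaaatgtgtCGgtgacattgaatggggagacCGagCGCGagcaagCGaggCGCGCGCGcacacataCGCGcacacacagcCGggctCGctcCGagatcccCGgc
Trib3: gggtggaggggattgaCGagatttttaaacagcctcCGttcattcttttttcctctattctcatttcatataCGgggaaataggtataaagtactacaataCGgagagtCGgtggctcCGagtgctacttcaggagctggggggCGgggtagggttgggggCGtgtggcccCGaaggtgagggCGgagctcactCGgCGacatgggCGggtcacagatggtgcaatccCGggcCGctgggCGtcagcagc
Both stretches are rich in CG, with 34 CG dinucleotides and 73.6% G or C at Trib2 and 16 and 57.2% at Trib3, against medians of 6 and 52.4% over the same 250 bases of the 32851 windows of the table. No peak overlapped either window, since the Trib3 peak begins downstream of it. The windows were searched on both strands for 11 short motifs. Those of the bZIP factors were TTACGTAA, the PAR bZIP palindrome (in 0.119% of all windows), TTATGTAA (0.938%) and TTGCGTAA (0.167%), each with 1 base changed, TTGCGCAA, the C/EBP palindrome (0.183%), TTGCATCA, the C/EBP-ATF composite (0.895%), TGACGTCA, the cAMP response element (1.79%), and TGANTCA, the AP-1 site (7.81%). The others were CACGTG, the E-box (7.15%), GGAAGT for ETS factors (23.8%), AGATAA for GATA factors (11.2%) and TGTGGT for RUNX factors (16.8%). No 2 of these words are the same, but some can share bases. Neither the Trib2 nor the Trib3 window held any of the 11, which says only that these letters are not in these windows.

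The genes that act with the Tribbles proteins were taken from a list of 29, members included, and all 29 were found in the gene table. At least 1 nearest peak lay at 9 of the 29 (31.03%), against 10.8% of all coding genes. Trib1 and Trib3 are 2 of the 9, and of the 26 list genes other than Trib1, Trib2 and Trib3, 7 (26.9%) had one. A peak inside the gene was found at 6 of the 29 (20.7%) and at 4 of the 26 (15.4%), against 6.82% of coding genes. The median distance from a list gene to its closest peak, with a peak inside counted as 0, was 86.1 kb. It was 91.6 kb for the 26 and 180.6 kb over all coding genes. A peak inside or within 100 kb was found at 16 of the 29 (55.2%) and at 14 of the 26 (53.8%), against 36.3%. These shares were not tested, the list was made with results of these data known, and expression or open chromatin was not matched.

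The ligase that Tribbles proteins recruit had no nearest peak at any of its 7 genes, a count near the share of 10.8% over all coding genes, so nothing is read from it. Cop1, the ubiquitin ligase itself, had its closest peak 389.1 kb away. Its partners Det1, Ddb1, Rbx1 and Cul4b, the last on the X chromosome, also had none within 100 kb. Dda1 and Cul4a, an adaptor and a cullin of the complex, had peaks 7.92 and 15.7 kb away that were closer to Ano8 and Lamp1.

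The C/EBP factors include C/EBP alpha, the substrate named above. They had no peak within their bounds at any of 5 genes, a count near the 6.82% of all coding genes. A peak inside or within 100 kb was found at 4 of the 5, against 36.3% of coding genes, and 1 of the 5 had a nearest peak. Cebpa had no peak within 100 kb, and its closest (chr7:34984476-34984875) was centred 134.6 kb below and nearer to Pepd. The same peak was the closest to Cebpg, at 61.7 kb. Cebpb, the factor of emergency granulopoiesis, had 1 at 39.5 kb, nearer to Tmem189. Cebpe, a factor of late granulocytes, had 2, at 42.5 and 90.5 kb, nearer to Slc7a8 and Rnf212b. Cebpd had the 1 nearest peak of the group, 97.1 kb above the gene and inside another coding gene, Spidr.

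Among the kinases, Map2k7, which activates JNK, had a peak centred 0.017 kb inside its lower end (chr8:4238558-4238957), where 1 of its 2 RefSeq starts lies. Mapk3, which encodes ERK1, had 1 nearest peak, 13.3 kb below the gene. Map2k1, which encodes MEK1, and Map2k4 had none within 100 kb. Akt1 had 4 peaks within 100 kb but none nearest, because 2 were closer to Inf2 and 1 each to Adssl1 and Pld4. Akt2 had none within 100 kb, with the closest at 623.2 kb.

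Of the stress factors and other partners, 4 of 7 (57.1%) had a nearest peak, against 10.8% of all coding genes, which was not tested. Atf4, which encodes a stress factor that induces Trib3, had 1 centred 0.928 kb inside its 2.36 kb (chr15:80255913-80256312). Ddit3, which encodes CHOP, its partner in that response, had its closest peak at 154.1 kb. Meis1, a homeobox factor of stem cells, had 1 over a RefSeq start (chr11:19018798-19019197). Foxo3, a factor restrained by AKT, had 1 inside, 31.3 kb from its upper end. Acaca, which encodes acetyl-CoA carboxylase, a substrate of the Trib3 and COP1 complex, had 1 at 12.1 kb, inside the neighbour Tada2a. Hoxa9 and E2f1 had closest peaks at 676.8 and 803.5 kb. Stk40, a Tribbles-like pseudokinase, had no nearest peak, and the closest, at 86.1 kb, was nearer to Csf3r.

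**Figure D4:**
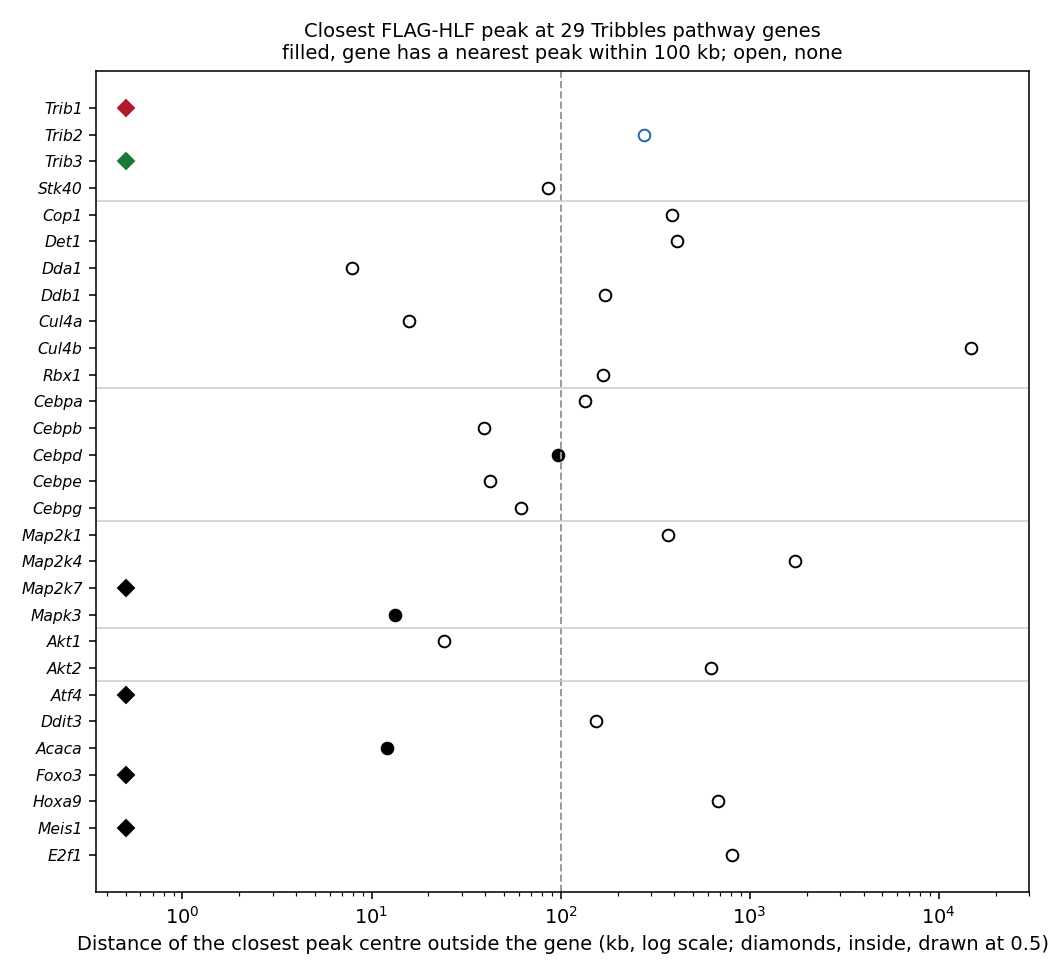
Distance in kb (log scale) from each of 29 Tribbles pathway genes to its closest peak outside; diamonds, drawn at 0.5 kb, mark genes with a peak inside. Filled symbols are the 9 genes with a nearest peak within 100 kb, lines part the roles and the dashed line stands at 100 kb. Cul4b, with the largest distance of the 29, and the other 6 ligase genes are open.

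Map2k7 and Meis1 were the list genes whose RefSeq promoter window overlapped a peak, among the 25 list genes with a window. Their 250 bases before that start are shown because they hold FLAG-HLF peak sequence, 5′ to 3′ on the gene's strand, with the bases under the peak in capitals. They come from chr8:4238490-4238739 (plus strand) for Map2k7 and chr11:19018970-19019219 (minus strand) for Meis1.
Map2k7: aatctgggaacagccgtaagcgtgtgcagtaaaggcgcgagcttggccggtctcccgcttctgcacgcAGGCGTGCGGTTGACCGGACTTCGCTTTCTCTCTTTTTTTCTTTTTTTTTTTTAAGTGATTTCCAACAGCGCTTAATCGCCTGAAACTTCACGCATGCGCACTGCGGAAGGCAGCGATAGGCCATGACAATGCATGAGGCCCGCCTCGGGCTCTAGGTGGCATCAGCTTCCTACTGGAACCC
Meis1: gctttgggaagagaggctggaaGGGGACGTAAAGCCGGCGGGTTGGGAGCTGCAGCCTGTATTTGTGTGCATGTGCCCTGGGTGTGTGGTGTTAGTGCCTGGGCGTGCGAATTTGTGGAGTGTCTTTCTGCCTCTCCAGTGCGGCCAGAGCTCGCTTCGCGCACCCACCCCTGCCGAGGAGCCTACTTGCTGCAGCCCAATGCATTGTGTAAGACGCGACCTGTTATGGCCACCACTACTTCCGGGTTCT
At Map2k7 182 of the 250 bases lay under the peak, and the peak centre stood 0.017 kb downstream of the start. At Meis1 it was 228 of 250, with the centre 0.028 kb upstream. The Meis1 stretch held GGAAGT and TGTGGT, words that 23.8% and 16.8% of all windows hold. The Map2k7 stretch held none of the 11 motifs.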

How the data were processed

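DNA precipitated with an anti-FLAG antibody was sequenced in 2 libraries, FLAG-HLF and GFP-ctrl. The submitters' processing notes list Bowtie2, bedtools and MACS2 and the genome mm10 (GRCm38), with no role or version for a tool. How peaks were thresholded or filtered, and how their width was set to 400 bases, was not given in the sources used here. For FLAG-HLF the authors deposited 1 file without a header, whose 3 columns hold chromosome, start and end.

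Starts were counted from 1, and the centre was the file's start plus 200. Genes came from RefSeq (GRCm38.p6), with 49997 genes, 21900 of them coding, without strand or exons. A peak counted for the coding gene whose end was closest to its centre, up to 100 kb away, which left 273 peaks without a gene. The assignment was checked on simulated data, where 200 of 200 planted peaks went to the right one of 21900 coding genes. Each was planted a few bases above the upper end of a gene, apart from other gene ends. The right gene was thus the nearest by construction, and positions far from gene ends were not tried. Members and gene lists were chosen with earlier results of these data known. Named genes were the 3 members, genes holding their peaks, up to 3 neighbours a side, genes with as many peaks as Trib1, list genes with a peak, Cebpa, Cebpb and Cop1. List genes without a peak and genes beside peaks of the list were named after their values were seen. Hlf itself had no nearest peak and its closest was 95.6 kb away. Results for 2 genes planned for the pathway list are not reported here, and its counts leave them out. Nothing was tested. The planned protein comparison was not made, because protein sequences were not used here. Python 3.11.15, numpy 2.4.6, pandas 2.3.3 and matplotlib 3.10.9 were used.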

Additional observations from a re-analysis of the deposited data

How the results depend on the processing

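Of 42 alternative values for 10 results, 34 stayed within 1.5 times the value reported. The 34 include values of 0 that stayed at 0, for Trib2 and for the member motifs. With a reach of 500 kb the counts were 10 peaks at Trib1, 1 at Trib2 and 4 at Trib3, because more sequence was searched. Of the 5 nearest peaks of Trib1, 3 lay in the first 1576 lines and 2 in the later ones, and the Trib3 peak was among the later ones, which leaves 0 in the first part. Merging peaks whose centres lay within 5 kb left 2 at Trib1, the group at the gene and the peak above it. With a limit of 20 kb, 0% of coding genes had 5 or more nearest peaks, and Trib1 had 4. With a limit of 50 kb M1ap alone had 5, and Trib1 had 4. With noncoding genes in the assignment Trib1 also had 4. The limits of 20 and 50 kb left 4 of the 6 peaks in reach of Trib1, and both values are among the 34. The pathway count ran from 7 genes (20 kb) to 9 (200 kb), and was 7 when peaks inside a gene went to that gene, which took those of Cebpd and Acaca. The single site with 4 centres close together was also the only one at spans of 10 and 20 kb, chosen after seeing the data. No paired analysis was possible because there is 1 list and the results come from no test. Leaving out a replicate was not possible with 1 library.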

Other observations

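The promoter windows that FLAG-HLF peaks did overlap give the setting for the empty windows of Trib2 and Trib3. Of the 32851 RefSeq windows of 300 bases, 227 overlapped a peak, and windows of 1 gene can share bases. TTGCGTAA was found in 4.85% of the 227 (11 windows) against 0.167% of all, TTGCGCAA in 2.64% (6) against 0.183%, and TTATGTAA in 6.17% (14) against 0.938%. The perfect PAR bZIP palindrome TTACGTAA was found in 1 of the 227 (0.441%), against 0.119% of all. TTGCATCA was at 3.96% against 0.895% and TGACGTCA at 3.52% against 1.79%. Words of other factors were also more frequent in the 227, with CACGTG at 11.01% against 7.15% and GGAAGT at 32.6% against 23.8%. TGTGGT was at 16.7% and 16.8%, and TGANTCA (6.17% against 7.81%) and AGATAA (9.25% against 11.2%) were less frequent. These shares were looked at after the data were seen and were not tested.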
